A study of Mus musculus with 2 samples.

Results

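Genes of the T helper 1 (Th1) programme were compared between splenic CD4+ T cells of DBA/1 and C57BL/6 mice. The 10 genes were chosen by symbol, with earlier results of these data known: Tbx21, Ifng, Cxcr3, Hopx, Eomes, Stat4, Il18r1, Il18rap, Il12rb1 and Ifngr1. All 10 were found, with 12 of the 22690 probe sets on the array and 10 of the 12393 genes that could be named under a single symbol. Of these, 8 were over the floor on both arrays, Eomes and Il12rb1 on the C57BL/6 array alone, and none was under it on both.

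The DBA/1 group, a strain susceptible to arthritis induced by glucose-6-phosphate isomerase (GPI), and the C57BL/6 group, a resistant strain, held 1 sample each. Mice of both strains had been immunised with GPI, and the cells were isolated by magnetic sorting on day 7. No unimmunised group, genotype or other treatment is given in the labels, and the sources used here do not give the number or age of the mice behind each RNA sample. With 1 array per strain there was no replicate check: no test could be made, no value below carries an SD, and a difference between strains cannot be told apart from a difference between mice, sorts or labelling reactions. Probe sequences were not available here, so strain variants under the probes could not be checked.

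Th1 cells are the CD4+ T cells that secrete interferon gamma, the main activator of macrophages. Interleukin 12 signals through its receptor to the transcription factor STAT4, interferon gamma signals through its own receptor, and both raise T-bet, the T-box factor encoded by Tbx21, which in turn acts on Ifng and on Cxcr3, the chemokine receptor that takes Th1 cells to inflamed tissue. T-bet also raises the interleukin 18 receptor, through which interleukin 18 augments interferon gamma secretion together with interleukin 12.

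The 5 effector genes, meaning the transcription regulators Tbx21, Eomes and Hopx, the cytokine Ifng and the homing receptor Cxcr3, were all lower in DBA/1. Their median log2 ratio (DBA/1 over C57BL/6) was -0.74. The 4 cytokine receptor genes had a median of 0.23, with both interleukin 18 receptor chains higher in DBA/1 and Il12rb1 lower. Over all 6936 genes with at least 1 signal over the floor the median log2 ratio was 0.10. The floor is the median of all signals on an array (37.6 on the DBA/1 array, 38.04 on the C57BL/6 array); lower signals were set to it, so a ratio with 1 side under the floor is a bound.

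The promoter windows of the effector genes that differed most and of Il18r1, the gene that differed most in the other direction, are shown because these genes are known to be wired to T-box and STAT factors. Each window runs 5′ to 3′ on the gene's strand, from 250 bases before the annotated start through the first 50 bases of the transcript, and comes from RefSeq (build GRCm38.p6, a C57BL/6J genome). The DBA/1 sequence was not used here. Capitals mark the T-box core GGTGTG or the STAT site TTCNNNGAA, searched on both strands.
Ifng, chr10:118440796-118441095, plus strand: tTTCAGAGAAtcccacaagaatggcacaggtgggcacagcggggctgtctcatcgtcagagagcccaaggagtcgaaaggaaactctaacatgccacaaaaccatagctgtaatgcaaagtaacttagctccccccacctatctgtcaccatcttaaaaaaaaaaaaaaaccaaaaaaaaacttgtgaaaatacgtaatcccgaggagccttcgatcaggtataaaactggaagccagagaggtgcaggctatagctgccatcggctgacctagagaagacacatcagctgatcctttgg
Tbx21, chr11:97115282-97115581, minus strand: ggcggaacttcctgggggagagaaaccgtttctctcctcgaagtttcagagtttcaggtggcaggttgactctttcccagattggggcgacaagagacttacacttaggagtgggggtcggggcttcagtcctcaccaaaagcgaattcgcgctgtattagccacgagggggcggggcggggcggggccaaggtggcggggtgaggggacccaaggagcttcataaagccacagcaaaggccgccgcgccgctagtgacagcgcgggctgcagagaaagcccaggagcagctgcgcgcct
Cxcr3, chrX:101734098-101734397, minus strand: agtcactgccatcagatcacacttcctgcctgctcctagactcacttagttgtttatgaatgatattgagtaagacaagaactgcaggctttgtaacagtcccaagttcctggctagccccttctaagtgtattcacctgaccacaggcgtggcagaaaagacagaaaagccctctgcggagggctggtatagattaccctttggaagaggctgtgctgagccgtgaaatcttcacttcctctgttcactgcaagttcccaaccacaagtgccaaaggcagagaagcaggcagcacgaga
Il18r1, chr1:40465371-40465670, plus strand: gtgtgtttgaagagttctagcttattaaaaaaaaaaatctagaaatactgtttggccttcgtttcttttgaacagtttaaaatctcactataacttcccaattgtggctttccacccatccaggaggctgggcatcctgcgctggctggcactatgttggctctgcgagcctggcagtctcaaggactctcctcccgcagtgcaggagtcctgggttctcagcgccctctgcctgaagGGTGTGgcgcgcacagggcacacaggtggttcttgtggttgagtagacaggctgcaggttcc
Il18r1, chr1:40465756-40466055, plus strand: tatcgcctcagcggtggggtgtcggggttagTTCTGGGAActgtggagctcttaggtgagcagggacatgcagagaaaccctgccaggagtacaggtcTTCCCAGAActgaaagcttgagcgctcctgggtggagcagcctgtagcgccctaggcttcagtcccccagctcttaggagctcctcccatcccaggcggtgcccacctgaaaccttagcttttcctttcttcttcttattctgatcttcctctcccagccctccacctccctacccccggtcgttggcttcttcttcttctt

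The Ifng window held 1 STAT site, 249 bases before the start, and no T-box core. Of the 3 annotated Il18r1 windows, 1 held a T-box core 12 bases before its start and another held 2 STAT sites, 219 and 152 bases before its start. The letters of these motifs were in neither the Tbx21 nor the Cxcr3 window. No T-box core and STAT site overlapped. Windows were found for 9 of the 10 genes, 13 windows in all, with Il12rb1 missing; 1 of them held the T-box core and 2 the STAT site. Of all 32851 windows of this length, 19.0% held the T-box core and 8.30% the STAT site. A match is a run of letters and was not tested as a binding site.

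Interferon gamma, the defining product of Th1 cells, showed the largest ratio of the 10 genes. Ifng (probe set 1425947_at) read 66.0 in DBA/1 and 173 in C57BL/6, a log2 ratio of -1.39, so that it was 2.62-fold higher in C57BL/6. The DBA/1 signal was the lower one and still over the floor. Of all genes over the floor, 0.678% had a ratio as low or lower.

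Tbx21, the gene of T-bet (probe set 1449361_at), read 59.2 in DBA/1 and 117 in C57BL/6, a log2 ratio of -0.98. It was thus 1.97-fold higher in C57BL/6, just inside 2-fold. Both signals were over the floor, but the DBA/1 one was close to it, and with the floor raised to the 60th percentile of each array the ratio shrank to -0.66.

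Cxcr3 (probe set 1449925_at) read 428 in DBA/1 and 713 in C57BL/6, a log2 ratio of -0.74 (1.67-fold higher in C57BL/6). Both signals lay far over the floor, so the floor had no part in this ratio. Of all genes, 3.78% had a ratio as low or lower.

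Eomes, the T-box factor eomesodermin, which acts beside T-bet in CD8 T cells and natural killer cells, was at the edge of measurement. Its brighter probe set (1435172_at) read 23.2 in DBA/1, under the floor, and 47.6 in C57BL/6, which makes it at least 1.27-fold higher in C57BL/6. The second (1426001_at) read 17.0 in DBA/1 and 33.9 in C57BL/6, under the floor on both arrays, and gives no fold. Both probe sets were dimmer in DBA/1.

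Hopx, a homeodomain-only protein that promotes the persistence of Th1 effector cells, differed little. Its first probe set (1428662_a_at) read 397 in DBA/1 and 487 in C57BL/6. The second (1451776_s_at) read 137 in DBA/1 and 173 in C57BL/6. Their log2 ratios of -0.30 and -0.34 lay close together. Hopx is the single gene of the 10 for which a repeat measurement over the floor exists. The names of its probe sets end in _a_at and _s_at, suffixes that were left out in an alternative described below.

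That repeat measurement gives the only error at hand. For 2325 genes the array held a pair of probe sets over the floor in both strains, and their log2 ratios differed with an SD of 0.43, which makes 0.31 per probe set, a factor of 1.24; it was 0.33 for pairs in which the dimmer probe set read under 200 on either array, as Tbx21 and Ifng did. It covers probe error only, not variation between mice. In units of the 0.31 over all pairs, which is used throughout, Ifng lay 4.54 errors from 0, Tbx21 3.19 and Cxcr3 2.40. The ratios of Hopx were about 1 error in size. By the 0.33 of the dim pairs, Ifng and Tbx21 would lie fewer errors from 0.

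**Figure D1:**
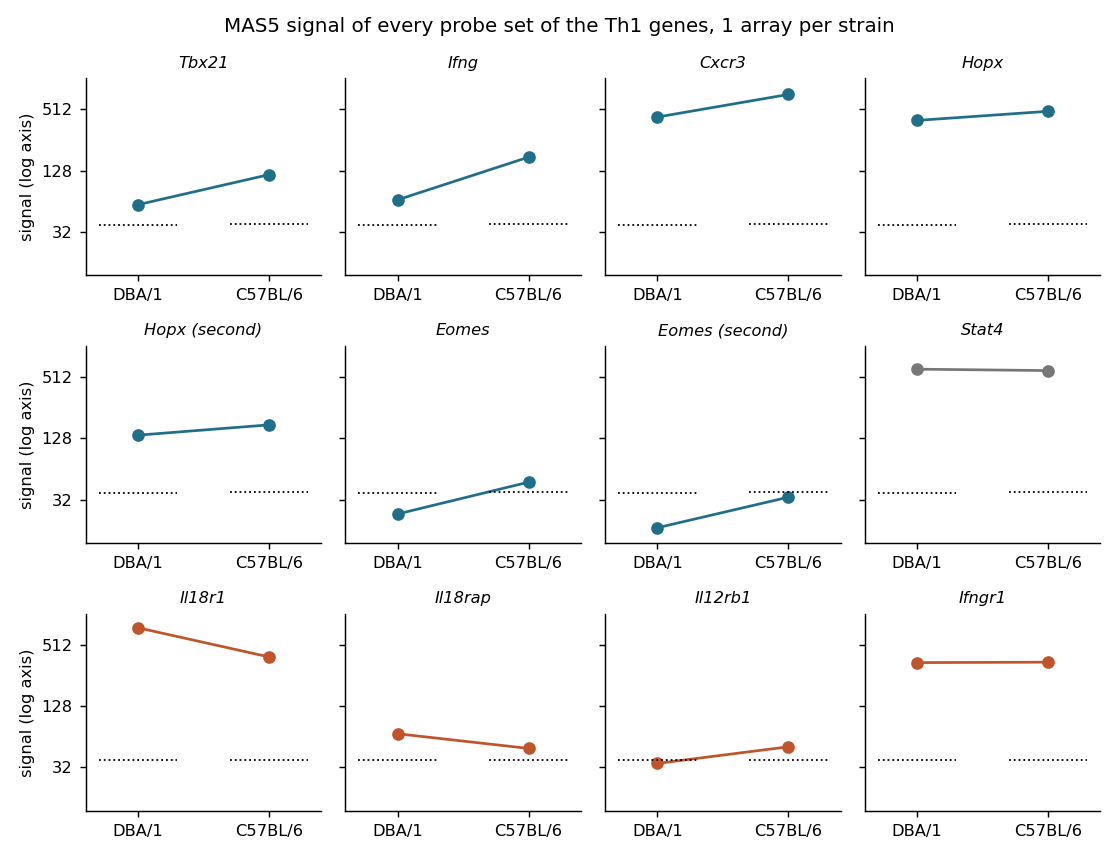
Signal of each of the 12 probe sets (y axis, log scale, MAS5 signal) on the DBA/1 and the C57BL/6 array (x axis), with each array's floor as a dotted line; blue marks effector genes, grey Stat4 and orange cytokine receptors. The lines of Tbx21, Ifng and Cxcr3 climb towards C57BL/6, those of Il18r1 and Il18rap descend, and Stat4 and Ifngr1 are nearly level.

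The interleukin 18 receptor went the other way. Il18r1, which encodes the chain that binds interleukin 18 (probe set 1421628_at), read 751 in DBA/1 and 389 in C57BL/6, a log2 ratio of 0.95 (1.93-fold higher in DBA/1). Both signals were far over the floor, and the ratio was 3.10 probe errors from 0. Of all genes, 4.30% had a ratio as high or higher. Il18rap, the accessory chain needed for signalling (probe set 1421291_at), read 68.6 in DBA/1 and 49.2 in C57BL/6, a log2 ratio of 0.48 (1.39-fold higher in DBA/1) at signals near the floor. Both chains were thus higher in DBA/1, the second by 1.56 probe errors.

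The remaining receptors did not share this direction. Il12rb1, the chain shared by the receptors for interleukins 12 and 23 (probe set 1418166_at), read 35.1 in DBA/1, just under the floor, and 51.1 in C57BL/6, a difference of at least 1.36-fold, higher in C57BL/6. Ifngr1, the ligand-binding chain of the interferon gamma receptor (probe set 1448167_at), read 342 in DBA/1 and 345 in C57BL/6, a log2 ratio of -0.015. Stat4, which carries the interleukin 12 signal (probe set 1448713_at), read 610.1 in DBA/1 and 591 in C57BL/6, a log2 ratio of 0.046. The ratios of Ifngr1 and Stat4 were smaller than the error of a single probe set; the sign of each changed under at least 1 other scaling.

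**Figure D2:**
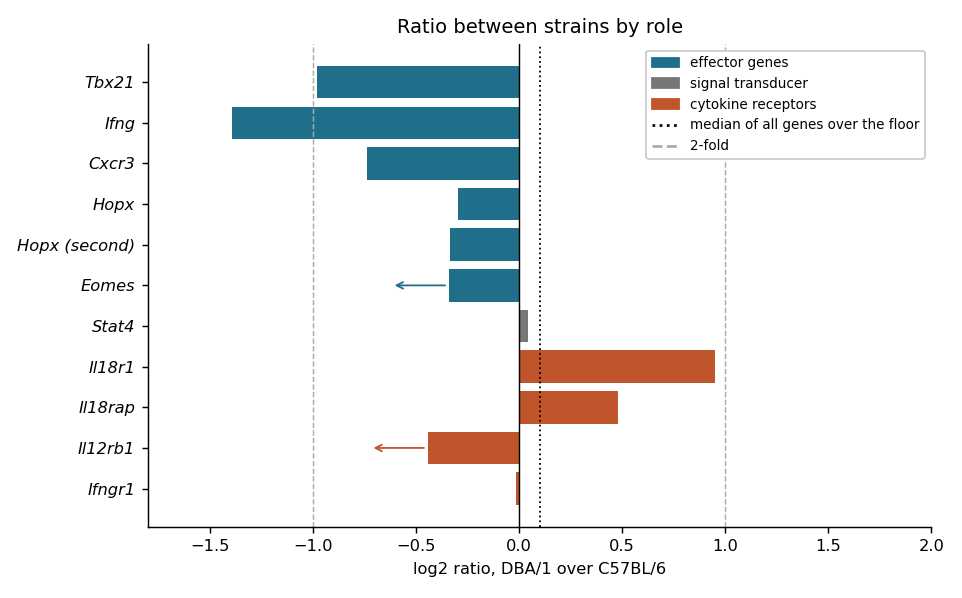
Log2 ratio of DBA/1 over C57BL/6 (x axis) for the 11 probe sets with a ratio, by role; arrows mark bounds, the dotted line the median of all genes (0.10) and dashed lines 2-fold. All effector bars point to C57BL/6, and among receptors Il18r1 (0.95) and Il18rap (0.48) point to DBA/1.

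Set against each other, the effector median minus the receptor median was -0.97 on the log2 scale, a description of 5 against 4 genes with no test. The genes and their roles were chosen with earlier results of these data known. Neither this gap nor the counts below are independent of that choice. The gap was -0.64 when Cxcr3, itself a chemokine receptor, was counted with the receptors, and lay between -1.21 and -0.77 in the other alternatives run. The receptor genes did not act as a block: their ratios spanned -0.44, a bound, to 0.95, and the 2 ends were Il12rb1 and Il18r1. Of the 10 genes 7 were lower in DBA/1, where 39.4% of all genes were lower, and 3 were higher, where 60.6% of all genes were. Only Ifng was at least 2-fold higher in C57BL/6, a size that 1.90% of genes reached, and none of the 10 was at least 2-fold higher in DBA/1, which 3.84% of genes were. Tbx21 also passed 2-fold once the small offset between the arrays was removed, with a log2 ratio of -1.06 after median centring. At 1.5-fold, a size chosen after the data were seen, Ifng, Tbx21 and Cxcr3 were higher in C57BL/6 (5.97% of all genes) and Il18r1 in DBA/1 (11.8%).

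**Figure D3:**
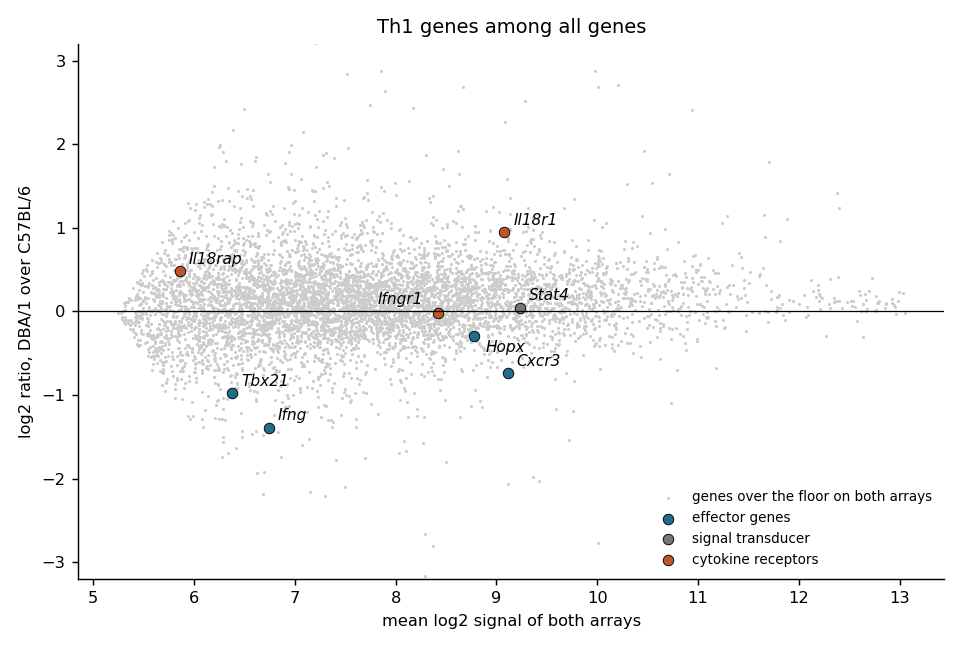
Log2 ratio of DBA/1 over C57BL/6 (y axis) against mean log2 signal of both arrays (x axis) for 6397 genes over the floor on both arrays, with 5 more beyond the y axis; the Th1 genes over the floor on both arrays are named. Ifng, Tbx21 and Cxcr3 lie in the lower part of the cloud and Il18r1 in its upper part, with other genes further out.

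The sorted samples held transcripts of other cells, in different amounts. The coreceptor gene Cd4 (913 in DBA/1, 857 in C57BL/6) and the CD3 chain gene Cd3e (747 in DBA/1, 791 in C57BL/6) were far over the floor in both, as the labelled cell type requires. For the 10 usable T cell markers the median was -0.12 on the log2 scale, and none reached 2-fold in the probe set used (3.84% and 1.90% of all genes). Of these 10 markers 8 were lower in DBA/1, where 39.4% of all genes were. The largest ratios were those of Zap70 (-0.67, with a second probe set at -0.31) and Thy1 (-0.54). A second probe set of Cd247, a chain of the T cell receptor complex, read 193 in DBA/1 and 424 in C57BL/6 (log2 ratio -1.13), while the one used had a log2 ratio of -0.24. In such mixtures, fewer cells of a type and less RNA per cell cannot be told apart.

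CD8 T cell markers were lower in DBA/1, as the effector genes were. Apart from Eomes, which is also among the 10 genes, 6 of 7 were lower, where 39.4% of all genes were. At least 2-fold lower were 4 of the 7, against 1.90% of all genes. Of these 4, Nkg7 (log2 ratio -1.92), Klrd1 (-1.69) and Klrk1 (-1.06) are shared with natural killer cells. The 7 markers had a summed signal of 569 in DBA/1 and 1489 in C57BL/6 and a median log2 ratio of -1.06. The coreceptor gene Cd8a read 52.9 in DBA/1 and 78.0 in C57BL/6. Cd8b1 read 16.1 in DBA/1, under the floor, and 199 in C57BL/6. CD8 T cells also express Ifng, Tbx21, Cxcr3 and Eomes, and their part in the ratios of these genes was not tested.

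Natural killer cells express Ifng, Tbx21 and Eomes as well. Of 17 markers 7 were over the floor, 3 higher and 4 lower in DBA/1, where 60.6% and 39.4% of all genes were. The summed signal was 3565 in DBA/1 and 2922 in C57BL/6 over the 12 with a probe set. Tyrobp and Fcer1g, which myeloid cells also express, carried most of that sum, and both were among the 3 higher in DBA/1. Without both the sum was 644 in DBA/1 and 1238 in C57BL/6, a split chosen after seeing the data. Of the other 5 markers over the floor 4 were lower in DBA/1. The exception was Gzmb, at 127 in DBA/1 and 67.8 in C57BL/6 (log2 ratio 0.91). Ncr1, which defines these cells, was under the floor on both arrays, at 18.2 in DBA/1 and 4.26 in C57BL/6. Klrd1, shared with CD8 T cells, read 145 in DBA/1 and 470.3 in C57BL/6. Il2rb, which CD8 T cells also express, read 201 in DBA/1 and 483 in C57BL/6. Klrd1 and Il2rb carried most of the sum without Tyrobp and Fcer1g. The part of natural killer cells was not tested.

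Markers of phagocytes and B cells were higher in DBA/1, as Il18r1 and Il18rap were. Of all genes 60.6% were higher in DBA/1 and 3.84% at least 2-fold. Of monocyte and macrophage markers 15 of 15 were higher, 6 of them at least 2-fold (summed signal 9566 in DBA/1 and 5084 in C57BL/6). Of neutrophil markers over the floor 11 of 11 were higher, 11 at least 2-fold (34809 in DBA/1 and 10687 in C57BL/6). Of dendritic cell markers 7 of 7 were higher, 5 at least 2-fold (4928 in DBA/1 and 1911 in C57BL/6). Of B cell markers 7 of 8 were higher, 7 at least 2-fold (1646 in DBA/1 and 840.3 in C57BL/6), while Cd72 was lower (log2 ratio -1.70). The integrin gene Itgam, a myeloid marker, read 94.1 in DBA/1 and 26.7 in C57BL/6, the second of these under the floor. Klrb1c was not analysed here. Of basophil and mast cell markers only Hdc was over the floor, on the DBA/1 array, with Mcpt8, Cpa3 and Fcer1a under it on both. The part of these cells in the receptor ratios was not tested.

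Upstream of the receptors, the ligand of the interleukin 18 receptor differed in the same direction as its chains. Il18, a product of macrophages and dendritic cells, read 178 in DBA/1 and 87.7 in C57BL/6, a log2 ratio of 1.02 (2.03-fold higher in DBA/1). Of 11 listed ligands and further receptor chains for interleukins 12, 18, 23 and 27, 4 were over the floor. Of these, 3 were higher and 1 lower in DBA/1, where 60.6% and 39.4% of all genes were. Il18 was the only one at least 2-fold apart, a size that 3.84% of all genes reached towards DBA/1 and 1.90% towards C57BL/6. Ebi3 lay close behind, at 172 in DBA/1 and 88.4 in C57BL/6 (log2 ratio 0.96). Il18 was under 2-fold once the arrays were rescaled, at 0.94 after median centring and 0.95 after quantile normalization or lowess. Another 5 were under the floor on both arrays: both interleukin 12 subunits (Il12a and Il12b), the second interleukin 12 receptor chain Il12rb2, the interleukin 18 antagonist Il18bp and Il23a, all named after their values were seen. Il12rb2, which pairs with the product of Il12rb1 in the interleukin 12 receptor, read 9.47 in DBA/1 and 3.62 in C57BL/6, so the pair could not be compared.

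Of 16 listed kinases, adaptors and feedback genes downstream of these receptors 13 were over the floor, with a median log2 ratio of 0.11 against 0.10 over all genes. None was 2-fold apart, a size that 3.84% of all genes reached towards DBA/1 and 1.90% towards C57BL/6, so that a count of 0 among so few is near the background. Gadd45g, which sustains p38 signalling to Ifng in Th1 cells, read 136 in DBA/1 and 73.0 in C57BL/6 (log2 ratio 0.90), opposite to Ifng itself. Socs3, a feedback inhibitor of cytokine receptors, read 776 in DBA/1 and 562 in C57BL/6 (log2 ratio 0.47), with 2 further probe sets at 0.61 and 0.33.

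Of 11 listed genes of the interferon gamma receptor pathway 10 were over the floor, with a median log2 ratio of 0.096 and none 2-fold apart, again near the background of 3.84% and 1.90%. The largest were the kinase Jak2 (0.42, with a second probe set at 0.34) and the phosphatase Ptpn11 (0.27), both higher in DBA/1. Of 27 listed target genes of interferon gamma 21 were over the floor, 15 lower and 6 higher in DBA/1, where 39.4% and 60.6% of all genes were, with a median of -0.18. Gbp2, counted as lower (-0.37), had a second probe set at 0.48. B2m, counted as higher (0.068), had one at -0.24. The 3 at least 2-fold higher in C57BL/6 (1.90% of all genes) were the GTPases Gbp7 (log2 ratio -2.67, with a second probe set at -2.04) and Iigp1 (-1.24, with a second at -1.40) and the peptide transporter Tap1 (-1.14). The 2 past 2-fold towards DBA/1 (3.84% of all genes) were Ciita, the transactivator of MHC class II (1.49, with a second probe set at 1.54), and the GTPase Gbp3 (1.44). Many of these genes also respond to type I interferon, and B cells and dendritic cells, whose markers were higher in DBA/1, express Ciita.

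Of 26 other Th1-associated genes 20 were over the floor, 11 higher and 9 lower in DBA/1, where 60.6% and 39.4% of all genes were. The median log2 ratio of the 20 was 0.059, against 0.10 over all genes. Id2, counted as lower (-0.18), had further probe sets at 0.39 and 0.35. Runx1, also counted as lower (-0.74), had further probe sets in both directions, among them 0.55 and -0.35. Of these 20, 4 were at least 2-fold higher in C57BL/6 (1.90% of all genes) and 1 in DBA/1 (3.84%). The 4 were Nkg7, a cytotoxic granule protein (-1.92), Fasl, the ligand of the death receptor Fas (-1.56), the chemokine Ccl5 (-1.27) and Il2rb, a chain of the interleukin 2 and 15 receptors (-1.27, with a second probe set at -0.46). All of these are also expressed by CD8 T cells and natural killer cells, whose values stand above. Nkg7 is itself among the CD8 T cell markers and Il2rb among the natural killer cell markers. The marker values are thus not independent of these genes. Havcr2 (TIM-3), an inhibitory receptor of Th1 cells that myeloid cells also carry, read 137 in DBA/1 and 65.3 in C57BL/6, 2.09-fold higher in DBA/1 (log2 ratio 1.07, and 0.98 after median centring).

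Regulators that oppose the Th1 programme had a median log2 ratio of 0.18 over 9 of 14 listed genes, with none 2-fold apart (3.84% and 1.90% of all genes). The largest were Rora (0.60), a transcription factor of Th17 cells, and Bcl6 (0.44), that of follicular helper T cells and germinal centre B cells, both higher in DBA/1. Bcl6 had a second probe set at 0.62 and Rora one at 0.37.

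**Figure D4:**
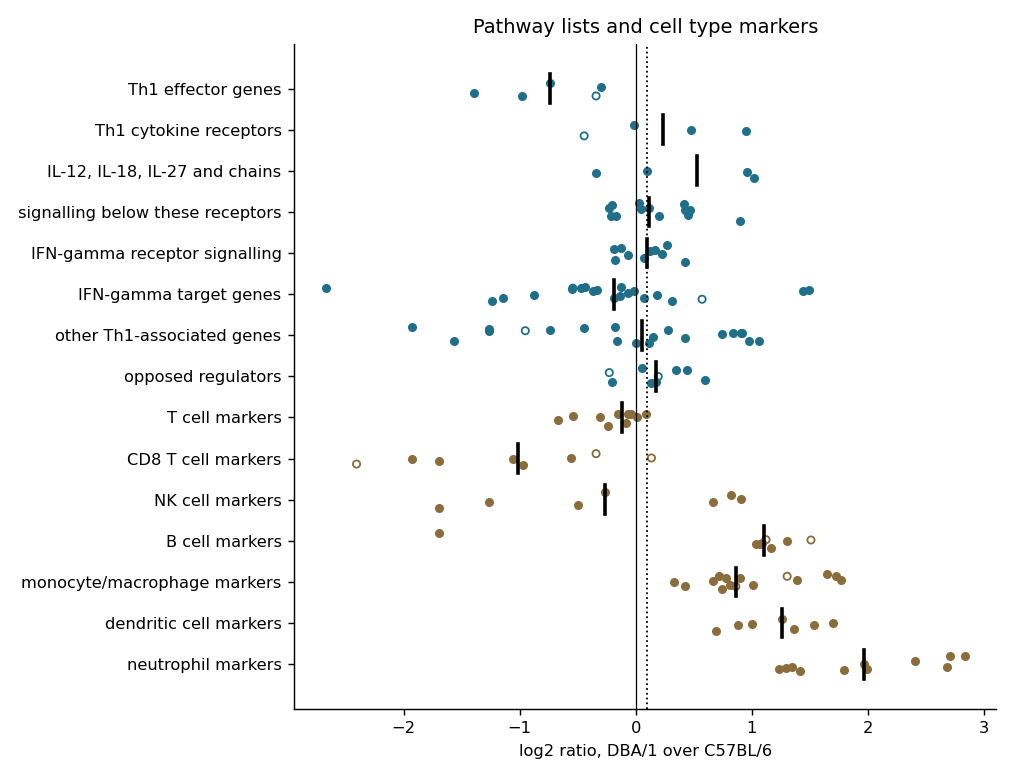
Log2 ratio of DBA/1 over C57BL/6 (x axis) for every usable gene of the lists (rows; blue for Th1 and pathway lists, brown for cell type markers), with open circles for bounds, black bars for medians and the dotted line for the median of all genes. The medians of the effector genes (-0.74) and of the CD8 T cell markers lie left of 0, with Crtam (0.14, a bound) the only CD8 marker to the right; the B cell, phagocyte and dendritic cell markers lie to the right, apart from the B cell gene Cd72 (-1.70).

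The genes directly before Il18r1 on chromosome 1, and Il18rap directly after it, belong to the interleukin 1 receptor family. Those over the floor, Il1r2, Il1r1 (a bound) and Il18rap, itself among the 10 genes, were higher in DBA/1. In RefSeq order Il1r2, Il1r1, Il1rl2, Il1rl1, Il18r1 and Il18rap follow each other. Il1r2, a decoy receptor for interleukin 1, read 147 in DBA/1 and 57.8 in C57BL/6 (log2 ratio 1.35). Il1r1, the signalling receptor, read 73.7 in DBA/1 and 22.5 in C57BL/6, the second of these under the floor, which makes it at least 1.94-fold higher in DBA/1. Il1rl2 was under the floor on both arrays and Il1rl1 was not analysed here. The next gene outward, Map4k4, had a log2 ratio of -0.087. On the other side, beyond Il18rap, Slc9a4, Slc9a2, Mfsd9 and Tmem182 were not analysed here. Neutrophils and monocytes, whose markers were higher in DBA/1, also express Il1r2 and Il1r1; their part was not tested.

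The neighbours of Ifng, Tbx21 and Stat4 were also read. Beside Ifng on chromosome 10, Nup107 (0.15), Rap1b (0.058), Cand1 (-0.0016) and Helb (-0.24) were over the floor, all far smaller in size than Ifng at -1.39. Beside Tbx21 on chromosome 11, Mrpl10 (0.073), Npepps (0.11) and Mrpl45 (0.095) were nearly level and Kpnb1 had a log2 ratio of -0.47. Beside Stat4 on chromosome 1, Nabp1 (0.051), Nab1 (-0.17) and Mfsd6 (0.15) were near 0, as Stat4 was.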

How the data were processed

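RNA of magnetically sorted splenic CD4+ T cells (3 µg of total RNA per sample, biotin-labelled cRNA made with an oligo(dT) primer, per the labels' protocols) was measured on 2 arrays, 1 per strain. The authors deposited 1 linear intensity per probe set and array; MAS5 is named in the submitters' processing notes, while its version, scaling target and detection calls are not stated in the labels. After trimming 2% from either end the mean was 146 in DBA/1 and 135 in C57BL/6, so the arrays had not been brought to a common trimmed mean. Values were used as deposited.

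Probe sets were named through a platform annotation table: of 22690, 20380 had 1 symbol, 691 several and 1555 none, and 64 were controls. The Entrez identifiers of all 10 Th1 genes matched RefSeq (GRCm38.p6), which served only for names, gene order and promoter windows. No label states the build used for the array's design. A gene was represented by the probe set whose mean log2 signal was highest. Signals under each array's median (percentile 50) were set to it, and the log2 ratio of DBA/1 over C57BL/6 was taken. A gene was counted as differing from 2-fold on. The ratio script was checked on simulated data (Python 3.11.15, pandas 2.3.3, numpy 2.4.6; lowess from statsmodels 0.14.6).

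The genes, their roles and all lists were chosen with earlier results of these data known. Named besides the 10 genes are list members at least 2-fold apart, or else the 2 with the largest ratio, a fixed set of defining markers, and the 5 coding genes on either side of Il18r1, Il18rap, Ifng, Stat4 and Tbx21. Some further genes, among them Ebi3 and Gzmb, were named after their values were seen. With 2 arrays no gene can be named for a pattern like that of another. Marker lists are given by counts and sums, with few of their genes named. Alternatives were 3 scalings, 4 treatments of low signals, 2 choices of probe set and 3 groupings of the members; a further scaling and a 1.5-fold limit were added after the data were seen.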

Additional observations from a re-analysis of the deposited data

How the results depend on the processing

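The directions of Ifng, Tbx21, Cxcr3, Hopx, Eomes, Il18r1, Il18rap and Il12rb1 held in every alternative that gave a value; those of Stat4 (-0.091 to 0.16) and Ifngr1 (-0.12 to 0.10) did not. The log2 ratio ranged from -1.48 to -1.07 for Ifng, from -1.06 to -0.66 for Tbx21, from -0.87 to -0.62 for Cxcr3 and from 0.82 to 1.07 for Il18r1. Eomes lay at -1.04 with no floor and with one at percentile 25, from signals too dim to rank. The effector median ranged from -0.98 to -0.62 and the receptor median from 0.15 to 0.47. The effector minus receptor gap was -0.64 with Cxcr3 counted as a receptor. The number at least 2-fold higher in C57BL/6 was 2 in place of 1 after median centring, quantile normalization or lowess, with no floor, and with one at percentile 25; the added gene was Tbx21 after the scalings and Eomes in the others. It was 3 at 1.5-fold. The number at least 2-fold higher in DBA/1 was 1 in place of 0 (Il18r1) relative to the T cell markers, and 1 at 1.5-fold. With the floor at percentile 60, Eomes, Il12rb1 and Il18rap gave no value, and without probe sets ending in _x_at, _s_at or _a_at Hopx gave none. No paired analysis was possible because there was 1 array per strain; for the same reason no replicate could be left out. Low signals limit Tbx21, Ifng, Eomes, Il18rap and Il12rb1 most. The ratio of Ifng went from -1.39 to -1.07 when 32 was added to each signal in place of a floor.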
